A study of Mus musculus with 677 samples.

Results

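The genes described here are 42 genes of DNA replication, out of 23420 genes in a table of single-cell expression from the mouse intestinal epithelium. They were named one by one from the known parts of the replication machinery, and all 42 were found in the table. By role they fall into origin licensing (Orc1, Orc6, Cdc6, Cdt1), the MCM helicase ring (Mcm2 to Mcm7), helicase activation and fork protection (Cdc45, Gins1, Gins2, Clspn), and polymerases and primase (Pola1, Prim1, Prim2, Pold1, Pold2, Pole). The clamp and its loader (Pcna, Rfc2 to Rfc5), lagging strand joining and single-strand binding (Fen1, Lig1, Rpa1, Rpa2), nucleotide supply (Rrm1, Rrm2, Tyms, Tk1, Dut) and uracil removal (Ung) follow. Chromatin assembly and methylation upkeep (Asf1b, Chaf1a, Chaf1b, Slbp, Uhrf1) and the E cyclins (Ccne1, Ccne2) complete the set.

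The study compared C57BL/6 mice that were wild type (WT) with mice carrying a knockout (KO) of Atg16l2, a homologue of the autophagy gene Atg16l1, by sequencing single intestinal epithelial cells. The libraries are taken to be SMART-Seq2, a plate method that copies full-length RNA of 1 cell (the labels name a droplet preparation beside it), and each library's name carries the authors' annotation, with 9 cell types in all. The labels give no age, sex or treatment of the mice. A code M1 or M2 in each name was read as an animal, which gives 2 animals per genotype, and each animal had 80 to 87 cells in each of 2 runs. The labels do not say that the codes are animals, nor whether M1 is the same animal in both runs, so p-values measure only the spread between these 2 units. Values are TPM (transcript share scaled to a fixed sum), which are per transcript length and keep no sequencing depth. Atg16l2 had a mean of 7.11 TPM in WT M1 and 7.32 TPM in WT M2, and had 0 TPM throughout the KO cells, where a count of 0 still allows up to 0.877% of cells above 0. Each of 7 marker lists was highest in the type it marks, and Goblet cells also held 32423 TPM of 6 Paneth markers, summed, beside 77832 TPM of 6 Goblet markers. Summed T cell, B cell, myeloid and stromal markers did not pass 81.9 TPM in any type. The ribosomal RNA gene Rn45s had a median of 21.3% of TPM in the run 1 cells of KO M2, against 4.91% to 7.46% in the other run 1 cells. In run 2 its median was 17.7% to 19.6% in every animal. Run 2 cells also had fewer genes above 0 TPM, with medians per animal of 5460.5 to 5878 against 6247 to 6615 in run 1. Without the run 1 cells of KO M2, the medians of the KO minus WT differences below were -0.03 on the average of types and -0.09 in TA. They were 0.29 in Stem and -0.02 in Enterocyte.prog.early. Values for single animals are listed in the order WT M1, WT M2, then KO M1, KO M2, and those of Stem cells rest on 20, 29, 29 and 18 cells, those of TA on 48, 37, 47 and 43, and those of Enterocyte.prog.early on 31, 33, 42 and 36.

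DNA is copied once per cell cycle. In G1 phase, the origin recognition complex, Cdc6 and Cdt1 load the MCM ring onto origins; in S phase, Cdc45 and GINS turn the ring into a moving helicase, and primase, polymerases, the Pcna clamp and its loader build the new strands. Ribonucleotide reductase (Rrm1, Rrm2), thymidylate synthase (Tyms) and thymidine kinase (Tk1) supply deoxynucleotides, and many of these genes are known targets of E2F transcription factors. In the intestinal crypt, stem cells divide at the base, their transit-amplifying (TA) daughters divide fast, and cells stop dividing as they leave the crypt as enterocytes.

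Because most of these genes were high in TA cells and low in mature enterocytes, their promoters were read for the letters that E2F factors are known to bind. RefSeq promoter windows of 300 bases (250 before the start site and 50 after, GRCm38.p6) were matched by symbol for 35 of the 42 genes. The letters TTTCGCGC, TTTGGCGC or TTCCCGCC, on either strand, were in a window of 16 of the 35, against 3.39% of all 27025 genes with a window and 7.36% of the 5136 such genes that passed the expression filter here. The CCAAT letters, searched for comparison on either strand, were in 22 of the 35 and in 41.1% of all genes. 5 stretches that lie wholly before the start site are shown, 2 for the MCM ring and 1 each for licensing, nucleotide supply and chromatin assembly, on the strand of the gene, with the matched letters in capitals. They are at chr1:128359725-128359835, minus strand (Mcm6), chr8:75109336-75109387, plus strand (Mcm5), chr4:108579407-108579453, plus strand (Orc1), chr7:102441608-102441655, plus strand (Rrm1) and chr17:56040349-56040396, plus strand (Chaf1a).
Mcm6: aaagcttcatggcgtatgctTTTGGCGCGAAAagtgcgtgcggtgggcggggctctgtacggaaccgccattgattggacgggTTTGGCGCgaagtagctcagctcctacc
Mcm5: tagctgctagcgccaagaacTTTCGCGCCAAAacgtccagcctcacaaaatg
Orc1: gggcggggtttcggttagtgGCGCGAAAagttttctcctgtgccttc
Rrm1: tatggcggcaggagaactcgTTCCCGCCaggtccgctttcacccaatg
Chaf1a: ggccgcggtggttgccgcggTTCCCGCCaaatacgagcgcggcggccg
The first capital block of Mcm6 holds 2 of the searched words on opposite strands, overlapping, and the 12-base block of Mcm5 is its reverse complement. A match is a run of letters and no measure of binding. The median difference between TA and Stem cells was 0.47 on the log2 scale in the 16 genes with a match and 0.55 in the 19 without.

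Most replication genes were highest in TA cells, and mature enterocytes were the type in which the most of them were lowest. Averaged over the 4 animals, 39 of the 42 had their highest mean in TA cells, and the other 3 (Mcm2, Mcm4 and Ung) had it in Stem cells. The lowest mean was in Enterocyte cells for 26 genes, in Tuft for 11, in Enterocyte.prog.late for 4 and in Paneth for 1. The median gene stood at 102.4 TPM in TA, 70.5 in Stem, 56 in Enterocyte.prog.early and 35.4 in Goblet cells, and at 5.91 in Enterocyte.prog.late and 2.55 in Enterocyte. The rare types lay between, with 14.2 TPM in Paneth (22 cells), 12.6 in Enteroendocrine (32 cells) and 7.73 in Tuft (7 cells). These means weigh each animal alike, and the 4 animals had only 6, 9, 4 and 3 Paneth cells. The labels do not say how the types were annotated, and the annotation is taken to rest on the expression of these same cells, so levels between types are given as a description, with no test.

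**Figure D1:**
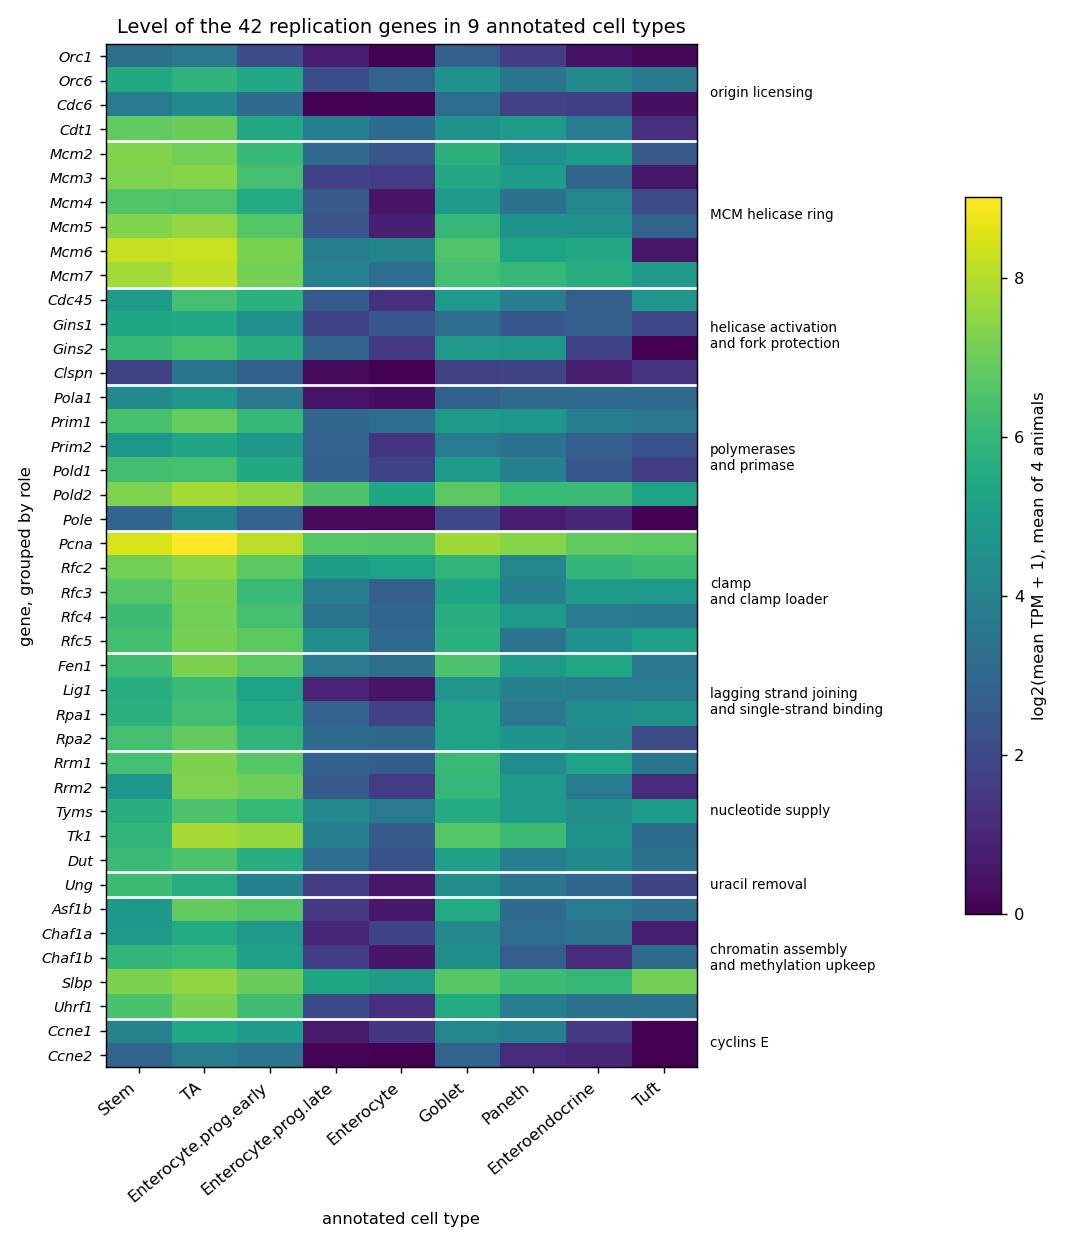
Heat map of 42 replication genes (rows, grouped by role) in 9 annotated cell types (columns); color is log2(mean TPM + 1), averaged over 4 animals. The Stem, TA and Enterocyte.prog.early columns are bright for nearly every gene, and the Enterocyte.prog.late and Enterocyte columns stay dark except for Pcna, Pold2, Slbp and Rfc2.

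Among the licensing factors, Cdt1, which brings MCM rings to origins, had the highest level. It was 136.6, 126.9, 136.6 and 97.4 TPM in TA cells, and 77.95, 130.4, 122.8 and 116.7 TPM in Stem cells. The TA and Stem values overlapped. Orc1 and Cdc6 were low throughout, at 10.8 ± 0.769 and 18.7 ± 7.56 TPM (SD, n = 4 animals) in TA cells, and no licensing factor was higher in TA than in Stem in all 4 animals.

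The MCM ring was about as abundant in Stem as in TA cells. Mcm6 was 287.7, 320.9, 349.5 and 273.9 TPM in TA cells, and 267.5, 282.4, 426 and 198.8 TPM in Stem cells. The 6 subunits had a median difference between TA and Stem of 0.10 on the log2(mean TPM + 1) scale, from -0.23 (Mcm2) to 0.36 (Mcm7). Each subunit had more than 0 TPM in 85.1% to 97.7% of TA cells, and in 3.45% to 32.8% of Enterocyte cells.

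Several genes that act once the fork is moving stood further apart. Cdc45, the helicase cofactor, was 66.8, 87.96, 94.05 and 72.6 TPM in TA cells and 17.1, 12.01, 37.3 and 50.7 TPM in Stem cells, a ratio of means of 2.75 with no overlap. Clspn, which links forks to the checkpoint, was 4.03 times as high in TA as in Stem, at 10.3 ± 2.39 against 2.56 ± 1.57 TPM (SD, n = 4 animals). Gins2, the highest of this role, was 86.3, 86.01, 99.9 and 61.8 TPM in TA and 42.8, 95.1, 60.5 and 60.3 TPM in Stem cells, which overlapped. Gins1, another GINS subunit, and Pold1, the catalytic subunit of polymerase delta, were near equal, with ratios of 1.05 and 1.04. Pole, Prim1 and Prim2 had ratios of 2.36, 1.42 and 1.54 with no overlap; the last pair are the subunits of primase.

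Pcna, the sliding clamp, had the highest level of all 42 genes. It was 551, 569.99, 512 and 426 TPM in TA cells, 288.9, 322.8, 454 and 360.3 TPM in Stem cells and 75.6, 116.2, 107.9 and 72.5 TPM in Enterocyte cells. Pcna thus stayed above 0 TPM in 84.5% of mature enterocytes, where Rrm2 was above 0 TPM in 5.17%. RefSeq lists 2 Pcna pseudogenes that are not named in the table, so reads of these copies may have been counted under Pcna. Pold2, the small subunit of polymerase delta, behaved likewise, with 219.4 ± 8.66 TPM in TA and 39.6 TPM in Enterocyte cells. Fen1, the flap nuclease that trims Okazaki fragments, was 161.6, 161.3, 167.7 and 107.8 TPM in TA and 63.9, 65.6, 97.2 and 64.3 TPM in Stem cells, with no overlap.

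By role, the median TA minus Stem difference was 1.09 on the log2 scale for the E cyclins, 0.91 for nucleotide supply, 0.90 for helicase activation and 0.65 for chromatin assembly. Single genes of nucleotide supply and chromatin assembly stood well above their role's median. Rrm2, the regulated subunit of ribonucleotide reductase, was 169.9, 168.7, 149.96 and 117.98 TPM in TA and 15.5, 15.9, 45.3 and 24.5 TPM in Stem cells, a ratio of 5.996. Tk1 was 246.3, 226.1, 220.2 and 198.9 TPM in TA and 28.9, 71.4, 75.3 and 65.7 TPM in Stem cells, a ratio of 3.69. Asf1b, a chaperone that hands new histones to the fork, was 132.03, 118.2 and 105.03 TPM in TA cells of WT M1, WT M2 and KO M1 and lowest in KO M2 (mean 114.3 ± 13.7, SD, n = 4 animals), and 12.8, 10.1, 36.3 and 48.02 TPM in Stem cells, a ratio of 4.27. In each of these 3 genes every TA value lay above every Stem value. Tyms was above 0 TPM in 97.7% of TA and 86.2% of Enterocyte cells, at 86.9 and 11.9 TPM, and has a pseudogene listed beside it in the table. Slbp, which binds the stem-loop of histone mRNA, was 175.3, 181.5, 189.8 and 189.02 TPM in TA and 123.4, 126.3, 171.5 and 176.4 TPM in Stem cells, and its ranges overlapped. Uhrf1, which brings the maintenance DNA methyltransferase to new DNA, had a ratio of 1.67 with no overlap. Chaf1a and Chaf1b, subunits of the assembly factor CAF-1, had ratios of 1.59 and 1.08 and overlapped.

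Ung and the E cyclins differed in opposite directions. Ung, the glycosylase that removes uracil from DNA, was 48.6, 51.7, 52.4 and 36.1 TPM in TA and 53.4, 80.2, 99.3 and 54.5 TPM in Stem cells. It was lower in TA in all 4 animals and its values did not overlap. Ccne1, the cyclin that drives entry into S phase with Cdk2, was 40.6, 51.1, 38.4 and 29.8 TPM in TA and 17.7, 5.72, 18.8 and 18.9 TPM in Stem cells, also with no overlap.

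In all, 39 of 42 genes had a higher mean in TA than in Stem and 24 were higher in all 4 animals. TA and Stem animals did not overlap in 15 genes that were higher in TA, against 9.58% of all 6813 genes compared, and in 1 that was lower (Ung), against 3.73%. Of 40 other replication genes listed for comparison, such as further ORC, GINS and polymerase subunits, 34 were higher in TA, with a median of 0.40 on the log2 scale against 0.52 in the 42. All 22 genes of a mitosis list were higher in TA, with a median of 3.26; 2 of them, Mki67 and Top2a, are also on the TA marker list.

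In Enterocyte.prog.early cells, an early stage on the absorptive path, 27 of the 42 genes were lower than in Stem cells and 15 were higher, with a median of -0.33 on the log2 scale. The role median was -0.85 for licensing. It was nearer 0 for polymerases and primase (-0.22), the clamp and its loader (-0.32), lagging strand genes (-0.30) and chromatin assembly (-0.16). Role medians were above 0 for the E cyclins (0.71), nucleotide supply (0.35) and helicase activation (0.24). Rrm2 was 140.6, 93.2, 148.5 and 127.5 TPM in these cells, a ratio to Stem of 5.04, and Tk1 and Asf1b had ratios of 3.19 and 3.60. Cdt1 was 60.6, 18.97, 40.1 and 51.3 TPM, 0.382 times its level in Stem cells. Ung was 20.6, 9.10, 9.33 and 19.9 TPM, 0.205 times its level in Stem cells. All 6 MCM genes were lower than in Stem, by a median of -0.98 on the log2 scale. Animals did not overlap in 4 genes that were higher (Fen1, Rrm2, Tk1 and Asf1b; 19.1% of all genes) and in 10 that were lower (10.5% of all genes). The 10 were Cdt1, which was the 1 licensing gene among them, Mcm2, Mcm3, Mcm4, Mcm6, Mcm7, Pola1, Pold1, Dut and Ung.

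Late progenitors had lower levels of every one of these genes than early progenitors, though 13 of them stayed at 10 TPM or more, led by Pcna (97.7 TPM), Pold2 (89.8 TPM) and Slbp (38.98 TPM). All 42 were higher in Enterocyte.prog.early than in Enterocyte.prog.late, with a median of 2.93 on the log2 scale, and animals did not overlap in 40 of them, against 15.2% of all genes. Mcm6 went from 185.7, 96.3, 114.01 and 187.9 TPM to 14.2, 3.68, 11.6 and 23.6 TPM. All 42 were also higher in TA than in Enterocyte.prog.early, with 29 not overlapping, against 10.3% of all genes. Goblet cells were higher than Enterocyte cells in all 42 genes, with 36 not overlapping, against 17.8%.

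A score was made for each cell as the mean of log2(TPM + 1) over the 42 genes, and a cell at a score of 3 or more was counted as over the cut. The score is a range with a chosen cut and not a cell type, and 36 cells lay within 0.25 of the cut. Mean scores over the 4 animals ran in the order TA (5.09 ± 0.20, SD), Enterocyte.prog.early (3.92 ± 0.23), Stem (3.72 ± 0.53), Goblet (2.43 ± 0.63), Paneth (1.74 ± 1.46), Tuft (1.48 ± 0.57), Enteroendocrine (1.38 ± 0.40), Enterocyte.prog.late (1.11 ± 0.04) and Enterocyte (0.86 ± 0.12). Enterocyte.prog.early and Stem did not differ beyond their spread, nor did neighbours from Goblet to Enterocyte.prog.late. The Paneth mean came from animals at 1.63, 0.27, 1.32 and 3.74, the last from 3 cells. Over cells, the median Paneth score was 0.27, below the 0.69 of Enterocyte cells.

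Over the cut were 92% of TA cells (exact 95% binomial interval 86.9% to 95.6%), 71.1% of Enterocyte.prog.early cells (62.9% to 78.4%) and 56 of 96 Stem cells (58.3%, 47.8% to 68.3%). Goblet cells had 23 of 70 over the cut (32.9%, 22.1% to 45.1%), Paneth 4 of 22 and Enteroendocrine 4 of 32. The 4 Enteroendocrine cells were all among the 20 from KO, and WT had 0 of 12, which allows up to 25%. Of the mature Enterocyte cells 1 of 58 was over the cut, and of Enterocyte.prog.late 0 of 75, which allows up to 4%. The intervals cover counting error only. TA cells made up 46% of all 350 cells over the cut, Enterocyte.prog.early 28.9%, Stem 16% and Goblet 6.57%. The median cell had 6429 genes above 0 TPM in TA, 6713 in Enterocyte.prog.early, 5688 in Stem and 5816.5 in Goblet, and the score and the number of genes detected had r = 0.74 within Goblet (n = 70 cells), 0.63 within Stem (n = 96 cells), 0.35 within Enterocyte.prog.early and 0.29 within TA cells. How far this number sets the score was not tested.

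**Figure D2:**
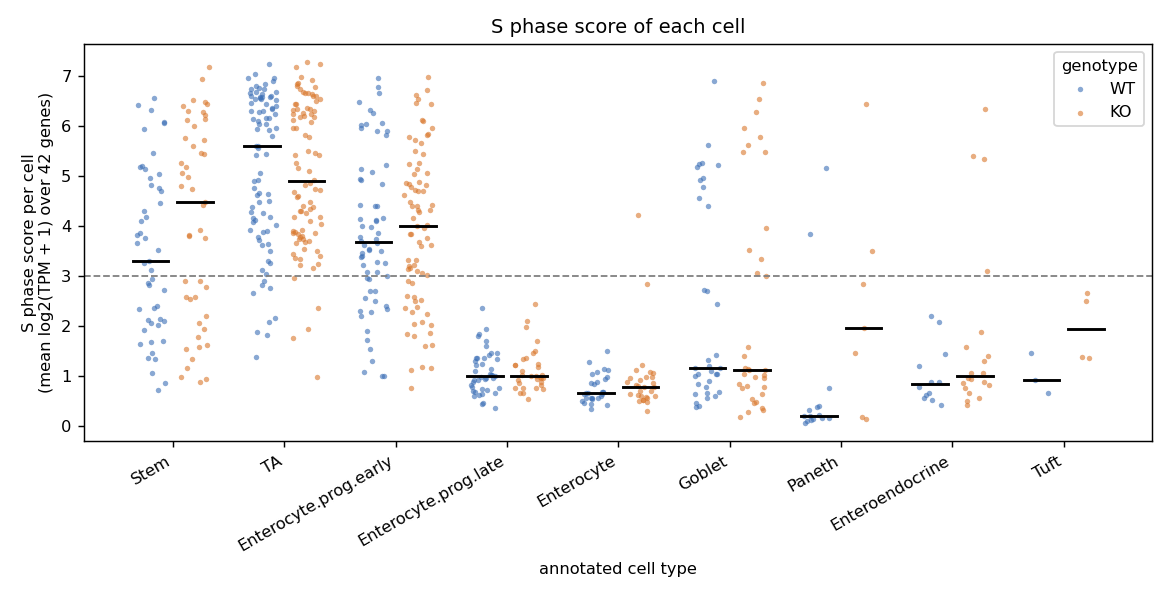
S phase score of each cell (points; y axis, mean log2(TPM + 1) over 42 genes) by annotated type, with WT in blue and KO in orange; bars are medians over cells and the dashed line is the cut of 3. TA cells lie mostly above the cut, Goblet cells form a low and a high set, and Enterocyte.prog.late cells all lie below it.

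Goblet cells were split. Their median score was 1.14, yet the cells over the cut reached 6.90, and only 2 of 70 Goblet cells lay within 0.25 of the cut. Within Goblet cells the genes rose and fell together, with a median correlation of each gene with the mean of the other 41 of r = 0.78 (n = 70 cells), highest for Mcm5 (0.94). The same median was 0.64 in Stem (n = 96), 0.57 in TA and 0.57 in Enterocyte.prog.early, over all cells of each type. The cells of a type come from the same 4 animals and differ in genes detected, and the part of that in these values was not tested.

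The score was then set beside a mitosis score, the mean of log2(TPM + 1) over 22 mitosis genes, none of them among the 42. In Stem cells the mitosis score did not pass 3.18, and 0 of 96 cells had both scores at 3 or more, which allows up to 3.13%, while 56 had a replication score over the cut. The annotation is taken to rest on the expression of these same cells, so stem cells in mitosis may carry the TA label. TA cells held 8644.6 TPM of 5 Stem markers, summed, beside 17006 TPM in Stem cells. How far the labels set the low mitosis scores of Stem cells was not tested. Of the TA cells, 65.7% had a mitosis score of 3 or more, as did 76.1% in Enterocyte.prog.early, and 16 of 70 Goblet cells had both scores there. Over all TA cells the 2 scores had r = -0.0036, with the points along an arc. The replication score had a median of 5.43 in the 60 TA cells with a mitosis score under 3, 6.37 in the 58 cells from 3 to 6, and 4.40 in the 57 cells at 6 or more.

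**Figure D3:**
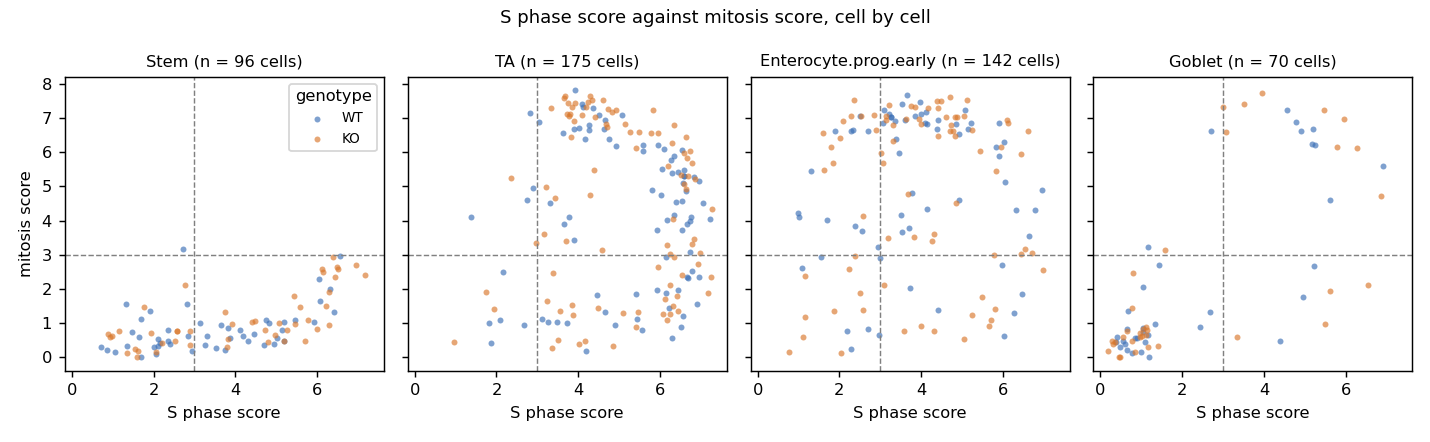
Replication (S phase) score (x axis) against mitosis score (y axis; mean log2(TPM + 1) over 22 genes) in Stem, TA, Enterocyte.prog.early and Goblet cells; each point is a cell, WT in blue and KO in orange, with dashed lines at 3. TA cells run along an arc from high replication and low mitosis scores to mid replication and high mitosis scores, and Stem cells stay in the lower part of the plot.

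Along that arc the 42 genes did not move as a block. TA cells with a mitosis score of 6 or more were compared with those under 3 within each animal; these bounds were chosen after the scores had been seen. Cdt1 was 180.5, 199.2, 187.7 and 150.3 TPM in the low cells, and 54.8, 28.8, 56.1 and 38.2 TPM in the high cells. Ung was 62.7, 88.1, 100.2 and 60.1 TPM in the low cells, and 0, 0.234, 11.2 and 7.75 TPM in the high cells. Neither gene's values overlapped.

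All 4 licensing factors and all 6 MCM genes were lower in the high cells, with no overlap of animals. Mcm6 went from 425 ± 63 to 135.3 ± 24.1 TPM (SD, n = 4 animals), a log2 difference of -1.65 ± 0.09. Ccne1 and Ccne2 were lower in all 4 animals, though their values overlapped. Chaf1b, Slbp, Rpa2 (a subunit of the single-strand binding protein) and Ung were also lower with no overlap. Pcna went from 539.6 ± 78.2 to 256.8 ± 31.6 TPM, with no overlap, but did not fall steadily. In TA cells with a mitosis score between those of the low and high cells, Pcna was 761.5, 734.5, 709.7 and 796.96 TPM. Each of these values lay above every Pcna value of the low cells. Mcm5, Mcm7, Chaf1b, Slbp, Rpa2, Ccne1 and Ccne2 also had their highest mean in these middle cells.

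Tk1 and Asf1b went the other way. Tk1 was 146.2, 172.2, 168.7 and 133.4 TPM in the low cells and 233.99, 251.2, 244.1 and 205.6 TPM in the high cells. Asf1b was 68.9, 96.2, 88.7 and 24.2 TPM in the low cells and 177.9, 101.3, 124.95 and 125.2 TPM in the high cells. These were the only genes of the 42 that were higher in all 4 animals. Rrm2, Cdc45, Fen1 and the 3 loader genes Rfc2, Rfc4 and Rfc5 overlapped between the low and high cells. Rrm2 was 252.3 TPM in the cells from 3 to 6, against 110.9 and 97.6 TPM below and above. Most of the 42 genes likewise had their highest mean from 3 to 6, among them Tk1 (285.1 TPM) and Asf1b (147.5 TPM). The exceptions were the licensing factors, Mcm2, Mcm3, Mcm4, Mcm6, Ung and Rfc3, highest under 3, and Rfc5, highest at 6 or more.

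Of the 42, 15 were lower in the high cells with no overlap of animals, against 2.55% of 6778 genes compared, and 2 were higher with none, against 6.29%. A median of 5915.5 genes were above 0 TPM in the low and 7028 in the high cells, so more genes were detected in the cells where these genes were lower. Across the 42 genes, the correlation of each gene with the mitosis score in TA cells, from -0.46 (Ung) to 0.46 (Asf1b), and its TA minus Stem difference had r = 0.69 (Spearman 0.68); both use the TA cells and genes are not independent replicates.

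**Figure D4:**
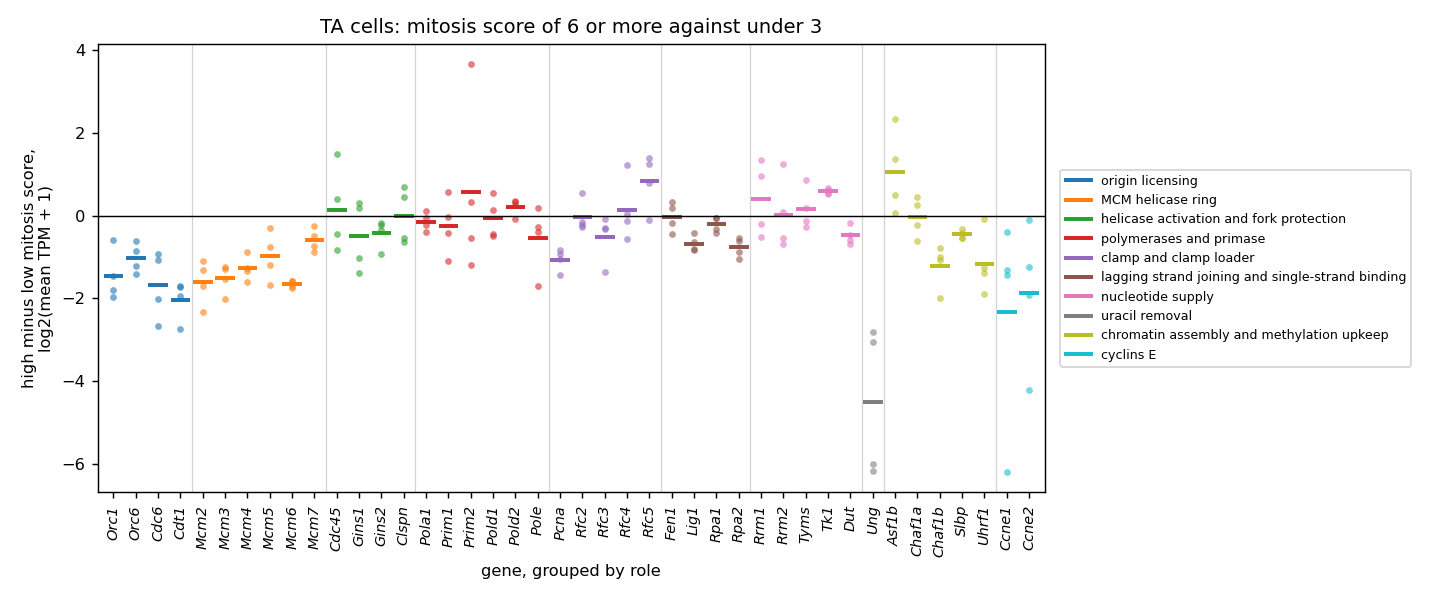
Difference between TA cells with a mitosis score of 6 or more and TA cells under 3, in log2(mean TPM + 1) (y axis), for each of 42 genes grouped and colored by role (x axis); points are the 4 animals and bars their mean. All licensing and MCM points lie below 0, Ung lies lowest on average, and all points of Tk1 and Asf1b lie above 0.

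No replication gene passed the threshold between KO and WT in any comparison. KO and WT were compared over animals with limma on log2(mean TPM + 1), adjusted by Benjamini-Hochberg over all tested genes, in the 6 types that had 10 or more cells from each animal and on their average. The filter kept 37 of the 42 genes for the average (Orc1, Cdc6, Clspn, Pole and Ccne2 were below it), 38 in Stem, all 42 in TA, 37 in Enterocyte.prog.early, 13 in Enterocyte.prog.late, 6 in Enterocyte and 35 in Goblet. Of all genes, an adjusted p under 0.05 was reached by 0% on the average, 0% in Stem, 0.0588% in TA, 0% in Enterocyte.prog.early, 0.082% in Enterocyte.prog.late, 0.0342% in Enterocyte and 0.0161% in Goblet. With 2 animals per genotype and 2 residual degrees of freedom, a miss does not show that the genotypes are alike.

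On the average of the 6 types the median difference of the 42 genes was 0.08 on the log2 scale, beside 0.03 over all tested genes. At an unadjusted p under 0.05 were 3 of the 37 tested genes, all higher in KO (3.69% of all genes were higher and 3.88% lower). Slbp had averaged log2 levels of 6.04 and 6.21 in WT and 6.49 and 6.81 in KO, a difference of 0.53 ± 0.16 (SE; limma adjusted p = 0.526). Cdc45 had 3.88 and 3.82 in WT and 4.44 and 4.43 in KO, a difference of 0.59 ± 0.18 (limma adjusted p = 0.526). Rrm2 had 4.43 and 4.65 in WT and 5.05 and 4.998 in KO, a difference of 0.49 ± 0.17 (limma adjusted p = 0.583). Both KO animals were above both WT animals in each.

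Mcm7 had averaged log2 levels of 5.82 and 5.93 in WT and 6.25 and 6.13 in KO. In all, 9 of the 37 tested genes had both KO animals above both WT animals, against 22.3% of all genes, and 2 had them below, against 16.9%. The 2 lower genes were Fen1 (5.67 and 5.65 in WT, 5.30 and 5.41 in KO) and Dut (4.86 and 4.87 in WT, 4.73 and 4.63 in KO), which clears dUTP. The runs went apart: the median of the 42 was 0.36 in run 1 and -0.18 in run 2. Cdc45 was 0.93 in run 1 and -0.19 in run 2, Rrm2 was 0.96 and -0.67, and Slbp was 0.84 and 0.20.

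In Stem cells the 42 genes leaned towards KO. The median difference was 0.28, beside 0.02 over all tested genes, and 36 of 42 were higher, with medians of 0.35 in run 1 and 0.45 in run 2. Run 1 values rest on only 8, 15, 13 and 4 Stem cells of the 4 animals, and run 2 values on 12, 14, 16 and 14. The least detected gene of chromatin assembly was above 0 TPM in 21.9% of Stem cells. For nucleotide supply that lowest share was 24%, and for helicase activation 17.7%, so some means rest on few positive cells. Asf1b was 12.8 and 10.1 TPM in WT against 36.3 and 48.02 TPM in KO, a difference of 1.79 ± 0.42 (limma adjusted p = 0.888), and was higher in both runs (3.48 and 1.64). Cdc45 was 17.1 and 12.01 TPM in WT against 37.3 and 50.7 TPM in KO, a difference of 1.54 ± 0.41 (limma adjusted p = 0.888). Rrm2 was 15.5 and 15.9 TPM in WT against 45.3 and 24.5 TPM in KO, a difference of 1.04 ± 0.44 (limma adjusted p = 0.900).

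With Rfc2 and Rfc4, these made 5 of 38 tested genes at an unadjusted p under 0.05 and higher in KO, against 2.66% of all genes, and none was lower, against 2.8%. Both KO animals were above both WT animals in 14 of the 38 (18.2% of all genes) and below in none (15.8%). Single animals moved the median: it was 0.62 without KO M2, 0.44 without WT M2 and 0.10 without KO M1. The mean score of Stem cells was 3.21 and 3.66 in WT and 4.46 and 3.56 in KO, and the share over the cut was 40% and 65.5% in WT and 72.4% and 44.4% in KO, so both overlapped. Stem cells had a median of 5520 and 5661 genes above 0 TPM in WT and 5878 and 5345.5 in KO, so that KO M1 was highest in both score and genes detected. The part of this number in the differences was not tested.

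In TA cells the 42 genes leaned slightly the other way. The median was -0.13, beside 0.08 over all tested genes, with 27 of 42 lower; leaving out KO M2 made it 0.09 and leaving out KO M1 made it -0.31. Cdc6, which loads MCM rings with Cdt1, was 18.8 and 28.9 TPM in WT against 16.3 and 10.9 TPM in KO, a difference of -0.77 ± 0.33 (limma adjusted p = 0.593). Rrm2 was 169.9 and 168.7 TPM in WT against 149.96 and 117.98 TPM in KO, and Ccne1 was 40.6 and 51.1 TPM in WT against 38.4 and 29.8 TPM in KO. Cdc6 was the 1 gene of 42 at an unadjusted p under 0.05 (3.28% of all genes were lower and 4.68% higher at that p).

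Among the genes higher in KO in TA cells, Pole, the catalytic subunit of the leading strand polymerase, was 12.04 and 13.2 TPM in WT against 18.9 and 18.4 TPM in KO, a difference of 0.53 ± 0.30 (limma adjusted p = 0.643). Pola1, the catalytic subunit of the priming polymerase, was 21.04 and 22.7 TPM in WT against 34.4 and 25.7 TPM in KO. Rrm1 was 131.3 and 139.9 TPM in WT against 175.5 and 152.5 TPM in KO. In these 3 genes both KO animals were above both WT animals, while Rrm1 was -0.10 in run 2 alone. Both KO animals were above both WT animals in 8 of the 42 genes (26.8% of all genes) and below in 10 (13.3%). In the same cells 20 of 22 mitosis genes were higher in KO (median 0.39), against 60.8% of all tested genes. At an unadjusted p under 0.05 were 7 of them, against 4.68% of all genes, and 0 passed the adjusted threshold. These genes are not independent replicates. The mean replication score in TA was 5.11 and 5.22 in WT and 5.21 and 4.80 in KO, and 89.6% and 89.2% of WT and 93.6% and 95.3% of KO cells were over the cut. The mean difference in this share, 5.10 percentage points, ran from 1.06 at a cut of 2.5 to 7.11 in run 2 alone, was 1.25 in run 1 alone, and moved by more than the spread between animals in each of 8 other settings.

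Enterocyte.prog.early cells showed no net difference, with a median of 0.0001, and 0 of 37 tested genes at an unadjusted p under 0.05 (2.89% of all genes were higher and 2.64% lower). The runs were opposite: the median of the 42 was 0.47 in run 1, with 36 genes higher in KO, and -0.51 in run 2, with 2 higher, beside 0.20 and -0.02 over all tested genes. Goblet cells split in the same way, at 0.94 in run 1 and -1.41 in run 2 around a pooled median of 0.22, beside 0.24 and -0.34 over all tested genes and 1.31 and -2.40 over the mitosis genes. Their share over the cut was 52.6% in KO and 30.4% in WT in run 1 and 12.5% and 33.3% in run 2. In Goblet cells Asf1b and Uhrf1 were higher in KO at an unadjusted p under 0.05 (1.45% of all genes higher and 4.65% lower), and both turned negative in run 2. Asf1b was 35.3 and 19.7 TPM in WT against 37.2 and 87.1 TPM in KO. Each animal had 3 to 13 Goblet cells in a run, and the 11 Goblet cells of KO M1 in run 2, none over the cut, had a median of 4773 genes above 0 TPM, against 6249 in its 10 cells of run 1. The part of genes detected in the change between runs was not tested, nor was the change itself.

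**Figure D5:**
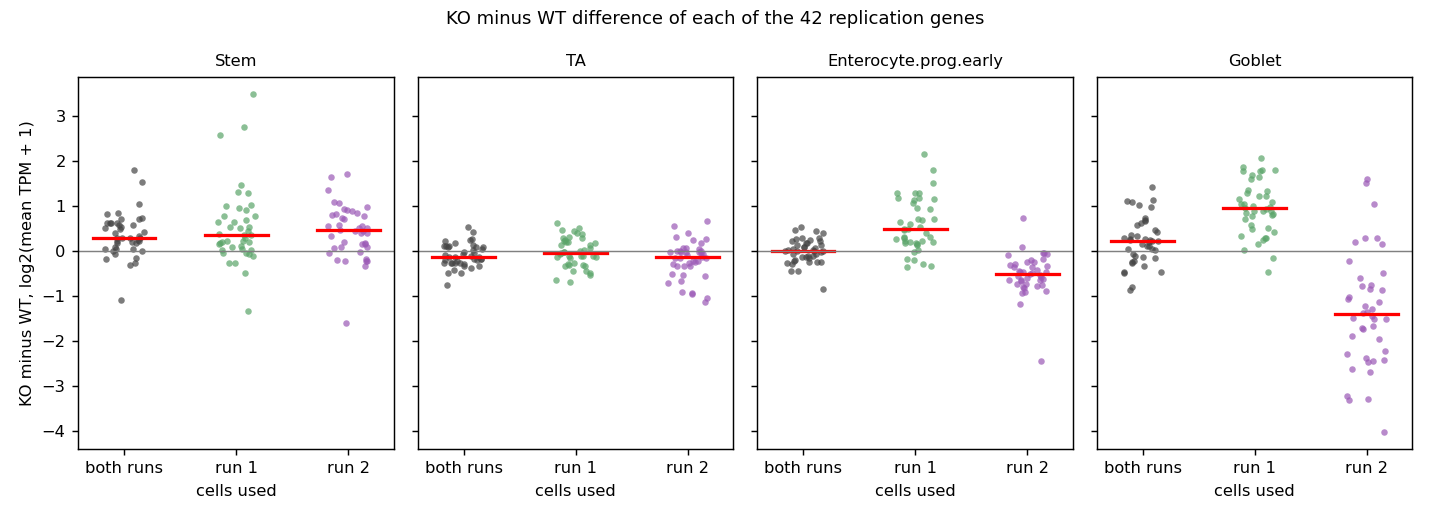
KO minus WT difference in log2(mean TPM + 1) (y axis) of each of the 42 genes (points) in 4 cell types, for all cells and for each run alone (x axis); red bars are medians over the genes. The Stem medians lie above 0 in both runs (0.35 and 0.45, from 4 to 16 cells per animal in a run), and the Enterocyte.prog.early and Goblet medians change sign between runs.

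In Enterocyte.prog.late and Enterocyte cells few of the genes could be tested. Slbp was 19.3 and 35.9 TPM in WT against 41.05 and 59.7 TPM in KO in Enterocyte.prog.late cells, a difference of 0.89 ± 0.40 (limma adjusted p = 0.891). In Enterocyte cells it was 22.6 and 16.8 TPM in WT against 32.8 and 43.8 TPM in KO, a difference of 0.92 ± 0.40 (limma adjusted p = 0.586). Slbp was the 1 tested gene at an unadjusted p under 0.05 in either type, with no gene lower; of all genes, 2.26% were higher and 3.33% lower in Enterocyte.prog.late, and 3.32% higher and 5% lower in Enterocyte. In mean replication score, both KO animals were above both WT animals in 3 of the 9 types (Enterocyte, Enteroendocrine and Tuft) and below in 0. Enteroendocrine rests on 9, 3, 5 and 15 cells and Tuft on 1, 2, 2 and 2, and the scores were not tested. The types share animals, so these are not separate replications.

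Whether the KO difference itself varied over the 6 types was tested with a limma F test on 24 profiles. These are 6 types from the same 4 animals, and animal was not a term, so the profiles are not independent and its p-values may be off in either direction. None of 37 tested genes passed (0.0148% of all genes did), and 3 had an unadjusted p under 0.05 (5.27% of all genes): Asf1b (limma adjusted p = 0.417), Tk1 (0.909) and Rfc3 (0.924). The other lists gave no called gene on the average either. The 40 other replication genes had a median of 0.12, with Pold3, Donson and Dbf4 at the smallest p; 22 cell cycle entry regulators had 0.23, with E2f8 and Ccna2 at the smallest p; and the 22 mitosis genes had 0.20, with Ube2c, Cdc20 and Top2a at the smallest p.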

How the data were processed

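Per the labels' protocols, single intestinal epithelial cells were sequenced by SMART-Seq2; these protocols also describe a droplet preparation, and the table was taken to hold the SMART-Seq2 libraries. The authors deposited 1 table of TPM values for every cell and 23420 genes; Bowtie, TopHat and RSEM are listed in the submitters' processing notes, with versions and genome build not given in the sources used here. TPM keep no depth, so precision is set by the number of cells and animals. Groups, animals, types and runs were read from the library names.

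Values were averaged over the cells of each animal and type. KO and WT were compared on log2(mean TPM + 1) with limma 3.58.1 (R 4.3.3; trend, 2 sided, Benjamini-Hochberg over all kept genes, 0.05) for genes with a mean of at least 10 TPM and above 0 TPM in at least 10% of cells, in types that had 10 or more cells from each animal; the script was tested on simulated data. Descriptions used Python 3.11.15 with pandas 2.3.3 and scipy 1.17.1. Medians over the 42 genes include those below the filter. The genes and lists were chosen with earlier results of these data known. Per-animal values are given for genes with the smallest p whose KO animals lie beyond the WT animals (up to 4 per direction on the average, 3 in Stem and TA) and for the highest gene of each role in TA cells; further genes were chosen after their values were seen. Alternatives were the pseudocount, filter, averaging, normalization, run, replicate block, score cut and each animal left out. Promoters came from RefSeq.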

Additional observations from a re-analysis of the deposited data

Results flagged for a closer look

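In mature Enterocyte cells of KO M2, 5.88% of cells (1 of 17) were over the replication score cut and the other 3 animals had none. With the other 3 at 0, a single cell over the cut is enough to set an animal apart. Those zeros come from 12 cells of KO M1, 18 of WT M1 and 11 of WT M2. They allow shares of 25%, 16.7% and 27.3% in turn, so no difference between animals was detectable at these cell numbers. The 1 cell had a replication score of 4.23 and a mitosis score of 5.19. Of 18 groups examined for a sample far from the others this was the 1 that stood out. The rule is set to mark about 1 in 20 by chance when values are normally spread. That rate does not hold for shares like this one, with 3 animals at 0, and a group with every animal at 0 cannot be marked.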

How the results depend on the processing

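No replication gene passed the adjusted threshold (limma, Benjamini-Hochberg) under any planned setting on the average, in TA, in Stem or in Enterocyte.prog.early, including each animal left out (0 to 0). With M1 and M2 as a replicate block the count also stayed at 0. The medians stayed at 0.08, -0.13 and 0.28, which says nothing about robustness. Each code occurs once per genotype, so a block cannot move these differences. The labels do not say that the codes pair animals, and the same-numbered animals had r = -0.13. A crossed pairing, added after seeing the data, called 1 gene in Stem (Asf1b, adjusted p = 0.0403; range over its settings 0.0403 to 0.999).

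The median difference on the average (0.08) was 0.21 with a pseudocount of 0.1, 0.36 in run 1, -0.18 in run 2, -0.028 without the run 1 cells of KO M2, and 0.037 to 0.19 with an animal left out. It ranged from -0.31 to 0.092 in TA, 0.10 to 0.62 in Stem and -0.25 to 0.15 in Enterocyte.prog.early with an animal left out. In Stem it was 0.59 when log2 values were averaged over cells, and in Enterocyte.prog.early 0.47 in run 1 and -0.51 in run 2. On the average, Rrm2 was -0.011 with log2 values averaged over cells and -0.67 in run 2, Cdc45 was -0.19 in run 2, and in run 1 Fen1 was 0.17 and Dut 0.28; Rrm1 in TA was -0.10 in run 2. The cause was not tested. With Rn45s removed and TPM rescaled, also added after seeing the data, the medians were 0.12 on the average, -0.07 in TA and 0.37 in Stem. The share of cells over the cut was 68.8% in Stem and 80.3% in Enterocyte.prog.early at a cut of 2.5, 85.1% in TA and 58.5% in Enterocyte.prog.early at 3.5, and 21.4% in Goblet in run 2 alone. Of all genes in TA, 4 were called with all animals, 17 without KO M2 and 0 without WT M2.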
